A study of Homo sapiens with 4 samples.

Results

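The lysosome and autophagy genes described here are 51 genes of lysosomal membranes, lysosomal hydrolases, the lysosomal proton pump, the TFEB transcription factor family and the autophagy core. They were selected by gene name in the authors' deposited table, with earlier results of the same comparison known. The names match 58 of the table's 57659 rows, because NEU1 is listed in 8 rows, of which the 1 with reads was used. Expression was measured by RNA-seq in 2 libraries (SLFN5 siRNA 1 and 2) from 786-0 cells that received siRNA against SLFN5. It was compared with 2 libraries (control siRNA 1 and 2) from cells that received control siRNA. All 4 libraries come from this single established human renal cell carcinoma line that lacks a working VHL tumour suppressor. The labels give no siRNA sequence, dose or time after transfection, and transfection itself is shared by both groups. The series' title concerns cell motility and invasion, and the design text mentions triplicates, while 4 libraries were analysed here. Whether both libraries of a group were separate cultures is not stated, so p-values measure a spread that may be technical.

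Lysosomes are acidic organelles in which proteases, glycosidases and lipases break down material that arrives by endocytosis or autophagy, and a proton pump of a membrane sector (V0) and a cytosolic sector (V1) acidifies them. In autophagy, a membrane that forms around cargo is marked with ATG8 proteins, closes and fuses with the lysosome. TFEB, TFE3 and MITF are related transcription factors that bind E-box sequences, among them the CLEAR element found near many lysosomal genes, and fusions of TFE3 or TFEB define a class of kidney tumour. SLFN5 belongs to the Schlafen family of interferon-inducible genes.

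The siRNA target was checked first. SLFN5 had 167 and 118 equalised counts (read counts that the authors adjusted to a common library size) in the SLFN5 siRNA libraries, against 420.3 and 353 in the control libraries. Both SLFN5 siRNA libraries lay below both control libraries, with a mean ratio of 0.368 (log2 change -1.45, SE 0.21, adjusted p = 0.000524). Whole read counts recovered from the table summed to 17117659 and 14700669 in the SLFN5 siRNA libraries and to 31905328 and 13187517 in the control libraries, a ratio of 2.42 between control 1 and control 2. Of 10 markers of renal carcinoma lines, 9 were tested with limma, and 1 (11.1%) was higher and 2 (22.2%) were lower at an adjusted p under 0.05. Their log2 changes ranged from -0.99 to 1.42. The 10 markers summed to 123504 and 122412 equalised counts in SLFN5 siRNA libraries, against 150734 and 144161 in control libraries. PAX8, a kidney lineage factor, had 3994 and 3392 equalised counts in SLFN5 siRNA libraries and 4129 and 3726 in control libraries. CA9, often used as a marker of clear cell renal carcinoma, was under 10 in every library. Of 15640 genes tested with limma, 2086 (13.3%) were higher and 2544 (16.3%) were lower at an adjusted p under 0.05, a split that became 2800 higher and 1823 lower when limma-voom was run on the recovered counts. That scaling moved the median log2 change of the tested genes to 0.085, against -0.033 in the fit reported, a shift of 0.12.

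The promoters of the genes bear on the TFEB family, so they were searched for the letters GTCACGTG on either strand, the core of the CLEAR element, which contains the E-box CACGTG. RefSeq promoter sequence (GRCh38.p14) was at hand for 40 of the 51 genes, and 8 of the 40 hold the core within the 250 bases before a transcription start. The core stood in 726 of all 27305 genes with an entry (2.66%) and in 500 of 10250 genes tested here (4.88%). Among the other lysosome and autophagy genes, described further on, it stood in 21 of 114 (18.4%). The E-box, counted also where it lies inside the core, was in 19.3% of the 57 promoters of the 40 genes. It was in 6.34% of all 35116 promoters and in 8.27% of the 14966 promoters of genes tested here. A match of letters is a description of the sequence and shows no binding. The 8 stretches are printed 5′ to 3′ on the strand of the gene up to the base before the start, with the core in capitals, because they hold the element that TFEB family factors are known to bind and because the genes that carry them differ in direction.
LAMP1 (chr13:113297039-113297238, plus strand, 200 bases before the start): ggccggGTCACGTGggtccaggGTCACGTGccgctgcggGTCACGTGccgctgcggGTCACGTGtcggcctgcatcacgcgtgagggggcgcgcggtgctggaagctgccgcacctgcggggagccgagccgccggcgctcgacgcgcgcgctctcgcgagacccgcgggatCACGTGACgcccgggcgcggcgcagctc
MCOLN1 (chr19:7522564-7522623, plus strand, 60 bases before the start): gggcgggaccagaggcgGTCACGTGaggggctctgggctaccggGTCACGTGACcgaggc
CTSA (chr20:45891275-45891334, plus strand, 60 bases before the start): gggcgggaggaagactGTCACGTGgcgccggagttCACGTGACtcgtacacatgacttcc
CTSD (chr11:1763928-1763987, minus strand, 60 bases before the start): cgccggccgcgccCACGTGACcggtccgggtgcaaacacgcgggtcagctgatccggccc
GAA (chr17:80101481-80101580, plus strand, 100 bases before the start): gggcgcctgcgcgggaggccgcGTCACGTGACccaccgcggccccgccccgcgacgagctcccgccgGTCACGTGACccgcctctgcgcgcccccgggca
ATP6V0B (chr1:43974880-43974959, plus strand, 80 bases before the start): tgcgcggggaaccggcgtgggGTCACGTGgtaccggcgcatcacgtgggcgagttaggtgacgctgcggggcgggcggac
ATP6V0D1 (chr16:67481158-67481237, minus strand, 80 bases before the start): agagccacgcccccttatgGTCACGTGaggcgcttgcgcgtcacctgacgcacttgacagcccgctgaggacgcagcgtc
ATG14 (chr14:55411831-55411890, minus strand, 60 bases before the start): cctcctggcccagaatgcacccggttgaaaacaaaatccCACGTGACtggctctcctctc
LAMP1 holds 5 copies, MCOLN1, CTSA and GAA hold 2 each, and the others hold 1. Of the 8 genes, CTSA, CTSD, GAA and ATG14 were higher, ATP6V0B was lower, and LAMP1, MCOLN1 and ATP6V0D1 did not pass the test. Counted by call, the core was in 4 of the 16 higher genes with promoter sequence, in 1 of the 6 lower genes and in 3 of the 16 that did not pass.

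**Figure D1:**
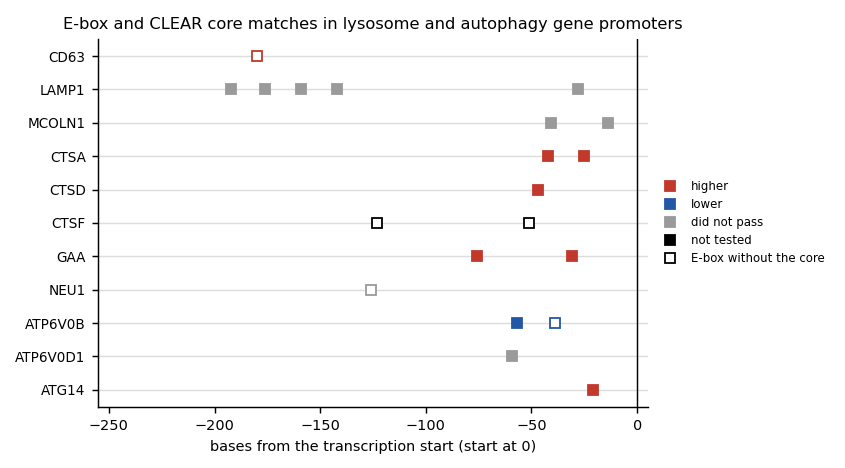
Position of the CLEAR core (GTCACGTG on either strand) and of other E-boxes in the promoters that hold one, in bases from the transcription start, 1 row per gene, filled for the core, open for other E-boxes and coloured by call. In the 8 genes shown that hold the core, a copy is found within 100 bases of the start, LAMP1 having 4 further copies beyond that distance.

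Of the 51 genes, 49 passed the limit of 10 equalised counts in at least 2 libraries, and CTSF and ATP6V0C did not. Of those 49, 18 were higher (36.7%) and 6 were lower (12.2%) at an adjusted p under 0.05, beside 13.3% and 16.3% of all genes tested. These shares are given side by side only, since the genes were chosen with this comparison in view. The remaining 25 did not pass, 4 of them with an unadjusted p under 0.05. The median log2 change of the 49 was 0.17, with a range of -0.62 to 1.63, against a median of -0.033 over all genes tested. All 24 genes that passed kept their direction under each of 14 alternative analyses, and CD68, CALCOCO1, BECN1, ATG14 and WIPI2 passed under each of them. Without the trend of variance on expression level in limma, 5 of the 18 and 0 of the 6 passed, with 5 of those 6 at an unadjusted p under 0.05. With limma-voom, NAGLU, NEU1, PSAP and ATP6V0D1 passed as higher too (adjusted p 0.0319, 0.042, 0.0312 and 0.014).

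**Figure D2:**
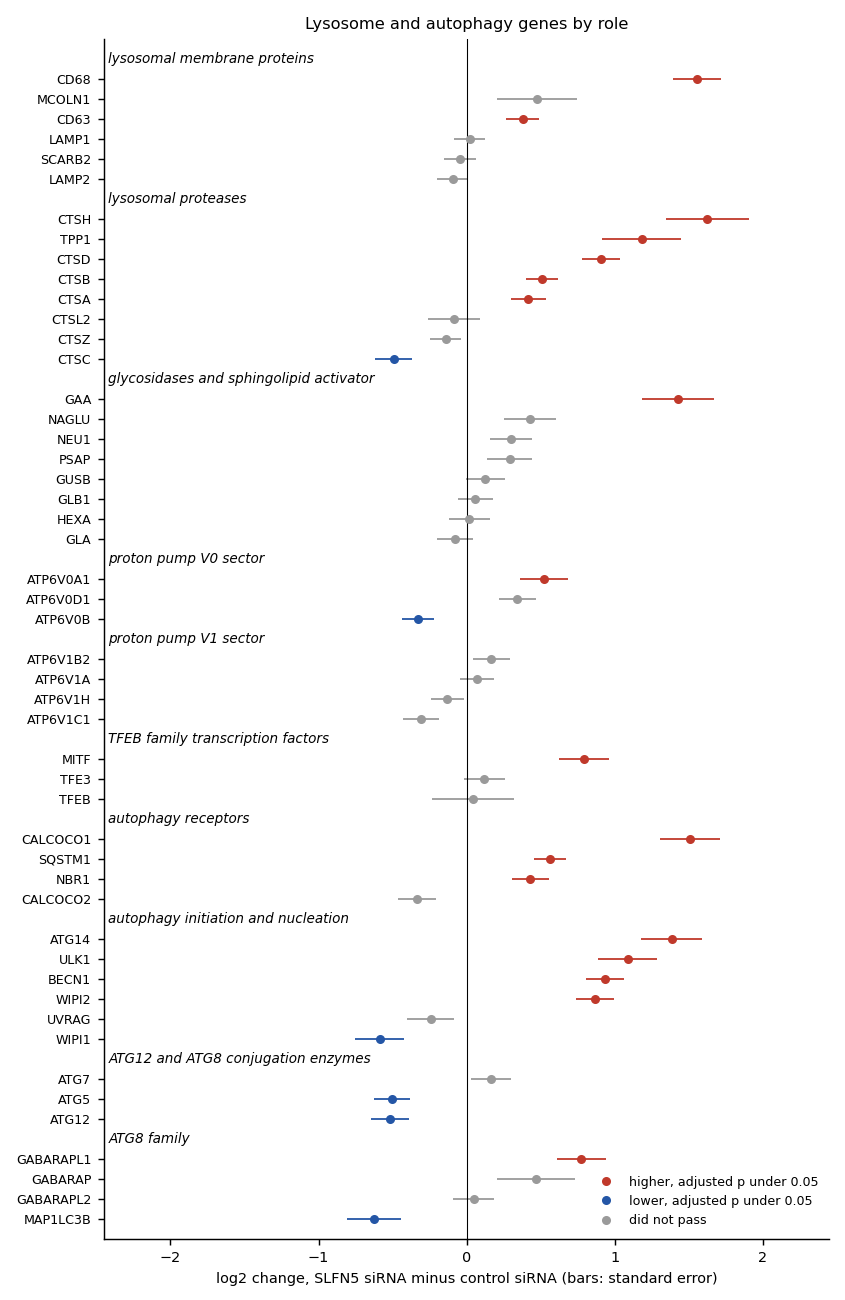
Log2 change (SLFN5 siRNA minus control siRNA) with its standard error for the 49 tested genes, in groups by role. Changes range from -0.62 (MAP1LC3B) to 1.63 (CTSH), and the genes of the V1 sector of the pump all lie between -0.31 and 0.17.

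Among 6 lysosomal membrane proteins, CD68 and CD63 rose and none fell. CD68, a heavily glycosylated lysosomal membrane protein widely used to stain macrophages, had 555 and 599 equalised counts in SLFN5 siRNA libraries, against 187 and 204 in control libraries. The SLFN5 siRNA libraries were far above the control libraries, and libraries of a group differed little. The means were 577 ± 31.2 equalised counts in SLFN5 siRNA libraries and 196 ± 11.5 in control libraries (SD, n = 2 each), a ratio of 2.95 (log2 change 1.56, SE 0.16, adjusted p = 7.03e-05). Of 13 macrophage and leukocyte markers, 10 were under 10 equalised counts in every library and 6 had no read, among them CD163, MRC1, AIF1 and TYROBP. The 13 summed to 131 and 181 equalised counts in SLFN5 siRNA libraries, against 118 and 99.4 in control libraries, most of it from MSR1, CSF1R and ITGAM, and 0 of the 3 tested with limma passed (1 at an unadjusted p under 0.05, and 1 with limma-voom). ITGAM, an integrin chain of myeloid cells, had 30.6 and 17.8 equalised counts in SLFN5 siRNA libraries and 11.2 and 2.21 in control libraries (adjusted p 0.0559, and 0.00556 without control 1). The part of such markers in the CD68 value was not tested, and in RNA of whole cultures more cells of a kind and more RNA per cell cannot be told apart. In GENCODE 29, 85.8% of the exon length of CD68 is shared with other genes, most of it (81.7%) with a gene on the same strand. The authors' deposited values hold no entry for that same-strand gene. CD63, a tetraspanin of late endosomes and lysosomes, had 7066 and 6936 equalised counts in SLFN5 siRNA libraries and 5058 and 5734 in control libraries, a ratio of 1.30 (log2 change 0.38, SE 0.11, adjusted p = 0.0221). The groups of CD63 did not overlap, but without SLFN5 siRNA 1, SLFN5 siRNA 2 or control 1 the adjusted p was 0.0716, 0.0539 and 0.226.

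The other 4 membrane proteins did not pass. LAMP1, which lines the inner face of the lysosomal membrane, had 9376 and 9784 equalised counts in SLFN5 siRNA libraries and 9379 and 9505 in control libraries, with a log2 change of 0.021 (SE 0.10). LAMP2, its relative with a role in fusion and in chaperone-mediated autophagy, had 5209 and 5628 in SLFN5 siRNA libraries against 5809.9 and 5752 in control libraries (log2 change -0.094, SE 0.11). For both genes the groups differed by less than the standard error. SCARB2, a membrane protein and sorting receptor of the lysosome, had 3452 and 3774 equalised counts in SLFN5 siRNA libraries and 3726 and 3711 in control libraries. MCOLN1, a calcium channel of the lysosomal membrane, had 92.1 and 132 in SLFN5 siRNA libraries against 78.4 and 79.6 in control libraries, with groups that did not overlap and an adjusted p of 0.215.

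Of 8 lysosomal proteases tested, CTSA, CTSB, CTSD, CTSH and TPP1 rose and CTSC fell. CTSD, the main aspartic protease of lysosomes, had 14139.9 and 11497 equalised counts in SLFN5 siRNA libraries, against 7362 and 6269 in control libraries. Its means were 12818 ± 1869 in SLFN5 siRNA libraries and 6815 ± 773 in control libraries (SD, n = 2 each), a ratio of 1.88 (log2 change 0.91, SE 0.13, adjusted p = 0.00041). Both SLFN5 siRNA libraries lay well above both control libraries in this highly expressed gene. A same-strand read-through gene shares 41.7% of the exon length of CTSD, and that gene had no read in any library. How reads of shared exons were counted is not given, so reads of that part may be left out for both genes. CTSH, an aminopeptidase and endopeptidase of the papain family, had the largest log2 change of the 49 genes. It had 237 and 154 equalised counts in SLFN5 siRNA libraries, against 70.6 and 53.1 in control libraries, a ratio of 3.16 (log2 change 1.63, SE 0.28, adjusted p = 0.00136). SLFN5 siRNA 1 was the highest library and control 2 the lowest, and the groups stayed apart. CTSB, a cysteine protease of the same family, had 4788 and 4377 in SLFN5 siRNA libraries against 3238 and 3180.2 in control libraries, a ratio of 1.43 (log2 change 0.51, SE 0.11, adjusted p = 0.00433).

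TPP1, the tripeptidyl peptidase lost in a childhood neuronal ceroid lipofuscinosis, had 405 and 232 equalised counts in SLFN5 siRNA libraries, against 155 and 117 in control libraries (log2 change 1.18, SE 0.26, adjusted p = 0.00608). The first SLFN5 siRNA library carried much of that difference: without it the log2 change was 0.78 and the adjusted p 0.0536. CTSA, a carboxypeptidase that also protects beta-galactosidase and neuraminidase, had 6438 and 5601 equalised counts in SLFN5 siRNA libraries and 4793 and 4225 in control libraries (log2 change 0.42, SE 0.12, adjusted p = 0.0198). Its adjusted p was 0.113 without SLFN5 siRNA 1 and 0.184 without control 2. CTSA shares 28.5% of its exon length with opposite-strand genes, chiefly NEURL2, which had 47.0 and 35.1 equalised counts in SLFN5 siRNA libraries and 20.9 and 20.4 in control libraries. CTSC, the dipeptidyl peptidase that activates granule serine proteases, had 1976 and 1751 equalised counts in SLFN5 siRNA libraries, against 2844 and 2411 in control libraries. It was the protease that fell, with a ratio of 0.709 (log2 change -0.49, SE 0.13, adjusted p = 0.0118). Its adjusted p was 0.0611 without SLFN5 siRNA 2, 0.127 without control 1 and 0.0572 after quantile normalization.

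Cathepsins V and Z did not pass. Cathepsin V, listed under its older symbol CTSL2, had 356 and 463 equalised counts in SLFN5 siRNA libraries and 464 and 400.4 in control libraries, with overlapping groups. CTSZ, a carboxypeptidase, had 7142 and 6879 in SLFN5 siRNA libraries against 7908 and 7562 in control libraries (log2 change -0.14, SE 0.10). CTSF, another papain-like cathepsin, had 7 and 0 reads in SLFN5 siRNA libraries and 2 and 0 in control libraries, too few to compare.

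Of 7 glycosidases and the sphingolipid activator precursor, GAA rose and none fell. GAA, the acid alpha-glucosidase that degrades lysosomal glycogen and is deficient in Pompe disease, had 308 and 229 equalised counts in SLFN5 siRNA libraries, against 116 and 82.5 in control libraries. Its means were 269 ± 55.3 in SLFN5 siRNA libraries and 99.5 ± 24.0 in control libraries (SD, n = 2 each), a ratio of 2.70 (log2 change 1.43, SE 0.24, adjusted p = 0.00129). The GAA promoter printed above carries 2 copies of the CLEAR core, both in a form that holds the core on both strands. LAMP1 and MCOLN1, with 5 and 2 copies, did not pass, and a link of the core to the GAA change was not tested. For 3 more genes the libraries of a group differed by about as much as the groups did. Libraries of both groups are numbered 1 and 2, and titles share an unexplained code across groups. With the library number as a replicate block in limma, from 2 pairs, NAGLU, NEU1 and PSAP passed as higher (adjusted p 0.00354, 0.00838 and 0.00373). The fit reported has no such block. NAGLU, which trims heparan sulfate, had 865 and 649 equalised counts in SLFN5 siRNA libraries and 628 and 492 in control libraries (log2 change 0.43, SE 0.18, adjusted p = 0.0872). NEU1, the lysosomal sialidase, had 2107 and 1735 in SLFN5 siRNA libraries against 1735 and 1387 in control libraries (log2 change 0.30, SE 0.14, adjusted p = 0.138). PSAP, the precursor of the saposins that present sphingolipids to hydrolases, had 36973 and 29464 in SLFN5 siRNA libraries against 30814 and 23640.1 in control libraries (log2 change 0.29, SE 0.15, adjusted p = 0.173).

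In PSAP and NEU1 the SLFN5 siRNA 2 value lay at or under the control 1 value, and in NAGLU the groups did not overlap. NAGLU passed when SLFN5 siRNA 2 was left out (0.64 on the log2 scale, adjusted p 0.0274) or control 1 (0.60, 0.0276). Its log2 change was 0.22 (0.418) when SLFN5 siRNA 1 was left out and 0.25 (0.468) when control 2 was. PSAP passed when control 1 was left out (0.48, 0.0319), while leaving out SLFN5 siRNA 1 gave 0.13 (0.635) and leaving out control 2 gave 0.099 (0.772). The other 4 had log2 changes near 0. GUSB, beta-glucuronidase, had 1002 and 916 equalised counts in SLFN5 siRNA libraries and 834 and 921 in control libraries. GLB1, beta-galactosidase, had 2269 and 2090.2 in SLFN5 siRNA libraries against 2219 and 1972 in control libraries. HEXA, the alpha chain of beta-hexosaminidase, had 1157 and 1001 in SLFN5 siRNA libraries against 1156 and 978 in control libraries. GLA, the alpha-galactosidase deficient in Fabry disease, completed the group with 1101 and 1160.5 equalised counts in SLFN5 siRNA libraries and 1162 and 1223 in control libraries. The log2 changes of these 4 lay between -0.077 and 0.13.

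The subunits of the proton pump moved in both directions. In the V0 sector, ATP6V0A1 rose and ATP6V0B fell, while 0 of the 4 V1 subunits among the 51 genes passed with limma (1 at an unadjusted p under 0.05, and 0 with limma-voom). ATP6V0A1, an isoform of the large membrane subunit, had 387 and 425 equalised counts in SLFN5 siRNA libraries and 282 and 282 in control libraries (ratio 1.44, log2 change 0.52, SE 0.16, adjusted p = 0.0312). Its adjusted p was 0.106, 0.121 and 0.14 without SLFN5 siRNA 2, control 1 and control 2, and 0.0509 after quantile normalization. ATP6V0B, a subunit of the proton-carrying ring, had 3845 and 4116 equalised counts in SLFN5 siRNA libraries, against 4998 and 4994 in control libraries (ratio 0.797, log2 change -0.33, SE 0.11, adjusted p = 0.0355). That call was the least stable of the 24, passing under 6 of 14 alternatives. Its log2 change was -0.15 after quantile normalization and -0.21 with limma-voom (adjusted p 0.296 and 0.192), and the adjusted p was 0.13, 0.163 and 0.182 without SLFN5 siRNA 1, control 1 and control 2. ATP6V0D1, which links the ring to the stalk, had 2204 and 1988 in SLFN5 siRNA libraries against 1763 and 1544 in control libraries, with groups apart and an adjusted p of 0.0539. It passed after quantile normalization (0.0163) and median-of-ratios scaling (0.0392). ATP6V0C, the main ring subunit, had 8 and 5 reads in SLFN5 siRNA libraries and 18 and 13 in control libraries. It shares 72.1% of its exon length with same-strand genes that had no read in any library, and it was not tested. How reads of shared exons were counted is not given, so the counts of ATP6V0C and of these genes may leave such reads out.

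In the V1 sector, ATP6V1A, the catalytic subunit, had 2509.9 and 2827 equalised counts in SLFN5 siRNA libraries and 2574 and 2500.0 in control libraries. ATP6V1B2, its non-catalytic partner in the head, had 1922 and 2246 in SLFN5 siRNA libraries against 1731 and 1976 in control libraries. ATP6V1H, a regulatory subunit, had 2350.4 and 2534 in SLFN5 siRNA libraries against 2639.5 and 2701 in control libraries. In the first pair the groups overlapped, and in ATP6V1H they did not, though it did not pass (log2 change -0.13, adjusted p = 0.415). ATP6V1C1, a stalk subunit that controls assembly of the sectors, had 2635 and 3107 equalised counts in SLFN5 siRNA libraries and 3346 and 3752 in control libraries (log2 change -0.31, adjusted p = 0.0773). Leaving out SLFN5 siRNA 2 gave it an adjusted p of 0.0386, leaving out SLFN5 siRNA 1 gave -0.19 on the log2 scale (0.333), and leaving out control 2 gave -0.23 (0.42).

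The list of 15 other pump subunits had 12 tested, of which 1 rose (8.33%) and 6 fell (50%), with a median log2 change of -0.33. Of all genes tested, 13.3% were higher and 16.3% lower. ATP6V1G1, a stalk subunit, had 1061 and 907 equalised counts in SLFN5 siRNA libraries, against 2184 and 2490.2 in control libraries (log2 change -1.25, SE 0.13, adjusted p = 6.43e-05). ATP6V0E2, a small membrane subunit, had 298 and 315 in SLFN5 siRNA libraries against 869 and 696 in control libraries (log2 change -1.34, SE 0.16, adjusted p = 0.00014). In both genes the SLFN5 siRNA libraries were under every control library by a wide margin. ATP6V0A2, another isoform of the large membrane subunit, had 463 and 569 equalised counts in SLFN5 siRNA libraries, against 888 and 903 in control libraries (log2 change -0.80, adjusted p = 0.00191). It thus fell where ATP6V0A1 rose. ATP6V1F, a rotor subunit, rose, with 2512 and 2441 in SLFN5 siRNA libraries against 1587 and 1489.9 in control libraries (log2 change 0.69, adjusted p = 0.00099). ATP6V1D, the central rotor shaft, had 775 and 871 in SLFN5 siRNA libraries against 1069.8 and 1159 in control libraries (log2 change -0.44, adjusted p = 0.0258), a call that passed under 8 of 14 alternatives and was lost without SLFN5 siRNA 1 (0.105), control 1 (0.0597) and control 2 (0.199).

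**Figure D3:**
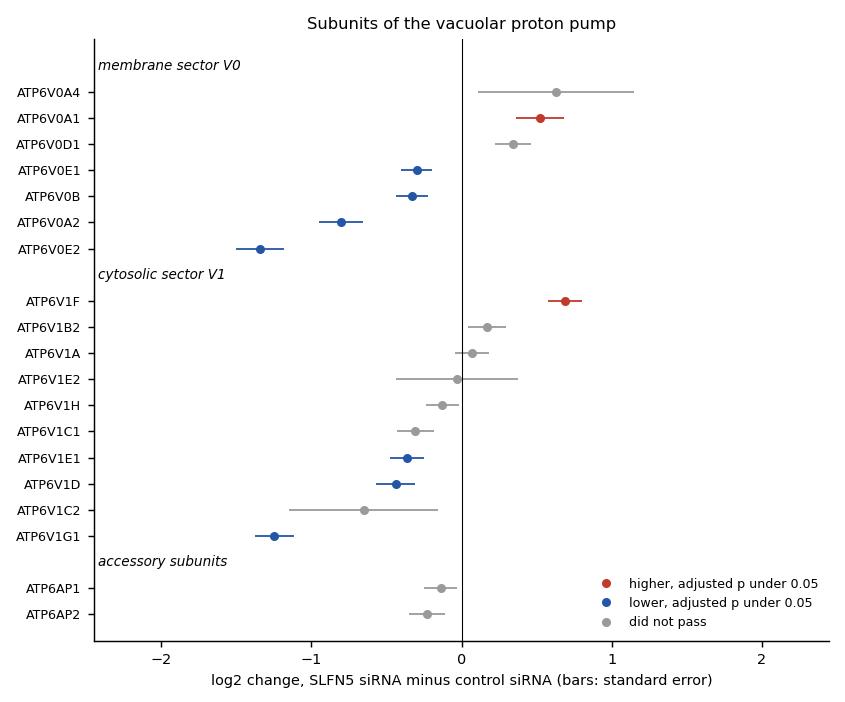
Log2 change (SLFN5 siRNA minus control siRNA) with its standard error for the 19 tested subunits of the proton pump and its accessory proteins. Among subunits that passed, ATP6V0E2, ATP6V1G1 and ATP6V0A2 have the lowest values (-1.34, -1.25 and -0.80) and ATP6V1F and ATP6V0A1 the highest (0.69 and 0.52).

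Of the TFEB family, MITF rose. MITF, which also controls pigment cell genes, had 1200.2 and 971 equalised counts in SLFN5 siRNA libraries, against 720.1 and 539 in control libraries. The SLFN5 siRNA libraries were both above the control libraries, with means of 1085 ± 162 in SLFN5 siRNA libraries and 629 ± 128 in control libraries (SD, n = 2 each) and a ratio of 1.72 (log2 change 0.79, SE 0.17, adjusted p = 0.00434). TFE3 had 989.6 and 868 equalised counts in SLFN5 siRNA libraries and 905 and 803 in control libraries (log2 change 0.12, SE 0.14). TFEB had 146 and 97.1 in SLFN5 siRNA libraries against 136 and 98.4 in control libraries (log2 change 0.043, SE 0.28). The groups overlapped in TFE3 and in TFEB, neither of which passed. Per exon length, as RPKM from the recovered counts, TFE3 had the highest mean level of the family, 12.5 in SLFN5 siRNA libraries and 10.6 in control libraries. MITF had 8.73 in SLFN5 siRNA libraries and 4.65 in control libraries on that scale. TFEB was the lowest, with 1.24 in SLFN5 siRNA libraries and 1.09 in control libraries. These are transcript levels, and the activity of TFEB family proteins, which depends on their place in the cell, was not measured.

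Of the 4 autophagy receptors, proteins that tether cargo to ATG8, CALCOCO1, SQSTM1 and NBR1 rose. CALCOCO1, a receptor for the endoplasmic reticulum and Golgi, had 539 and 416 equalised counts in SLFN5 siRNA libraries, against 188 and 146 in control libraries. Its means were 478 ± 86.4 in SLFN5 siRNA libraries and 167 ± 29.6 in control libraries (SD, n = 2 each), a ratio of 2.86 (log2 change 1.51, SE 0.20, adjusted p = 0.000279). The higher control library stayed far under the lower SLFN5 siRNA library. SQSTM1, or p62, the ubiquitin-binding receptor that is itself degraded by autophagy, had 22892 and 24504 equalised counts in SLFN5 siRNA libraries, against 15992 and 16030.5 in control libraries (ratio 1.48, log2 change 0.56, SE 0.11, adjusted p = 0.00235). NBR1, a related receptor, had 1112 and 1148 in SLFN5 siRNA libraries against 845 and 832 in control libraries (ratio 1.35, log2 change 0.43, SE 0.12, adjusted p = 0.022). Libraries of a group differed little in both, but for NBR1 the adjusted p was 0.0642, 0.0954 and 0.135 without SLFN5 siRNA 2, control 1 and control 2. CALCOCO2, or NDP52, which targets bacteria and mitochondria, had 759 and 833 equalised counts in SLFN5 siRNA libraries and 997 and 1006 in control libraries. Its groups did not overlap, and it did not pass (log2 change -0.33, adjusted p = 0.0719).

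Of 6 genes that act in starting an autophagosome, ULK1, BECN1, ATG14 and WIPI2 rose, WIPI1 fell and UVRAG did not pass. BECN1, the scaffold of the phosphatidylinositol 3-kinase complexes of autophagy, had 1415 and 1459 equalised counts in SLFN5 siRNA libraries, against 807 and 701 in control libraries. Its means were 1437 ± 31.2 in SLFN5 siRNA libraries and 754 ± 74.6 in control libraries (SD, n = 2 each; log2 change 0.93, SE 0.13, adjusted p = 0.000352). ATG14, the subunit that directs BECN1 to the site of autophagosome formation, had 280.2 and 339 equalised counts in SLFN5 siRNA libraries, against 109 and 127 in control libraries (ratio 2.63, log2 change 1.39, SE 0.21, adjusted p = 0.000557). For both genes the lowest SLFN5 siRNA value was far over the highest control value. UVRAG, which takes the place of ATG14 in a second BECN1 complex, had 318 and 340.3 equalised counts in SLFN5 siRNA libraries and 383 and 395 in control libraries (log2 change -0.24, adjusted p = 0.288). ULK1, the kinase that starts autophagy, had 416 and 352 in SLFN5 siRNA libraries against 206 and 156 in control libraries (ratio 2.12, log2 change 1.09, SE 0.20, adjusted p = 0.00186).

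The 2 WIPI proteins, which read phosphatidylinositol 3-phosphate on the forming membrane, differed in direction. WIPI2, the one that recruits ATG16L1, had 1508 and 1451 equalised counts in SLFN5 siRNA libraries, against 862 and 764 in control libraries (ratio 1.82, log2 change 0.87, SE 0.13, adjusted p = 0.000491). WIPI1 had 401 and 378 in SLFN5 siRNA libraries against 662 and 517 in control libraries (ratio 0.660, log2 change -0.59, SE 0.16, adjusted p = 0.0189). The WIPI1 call was lost without control 1, the deeper control library: the log2 change was -0.41 and the adjusted p 0.224, and without SLFN5 siRNA 2 the adjusted p was 0.0602. WIPI1 shares 28.1% of its exon length with opposite-strand genes, chiefly ARSG, which had 53.2 and 60.3 equalised counts in SLFN5 siRNA libraries and 41.0 and 56.8 in control libraries.

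**Figure D4:**
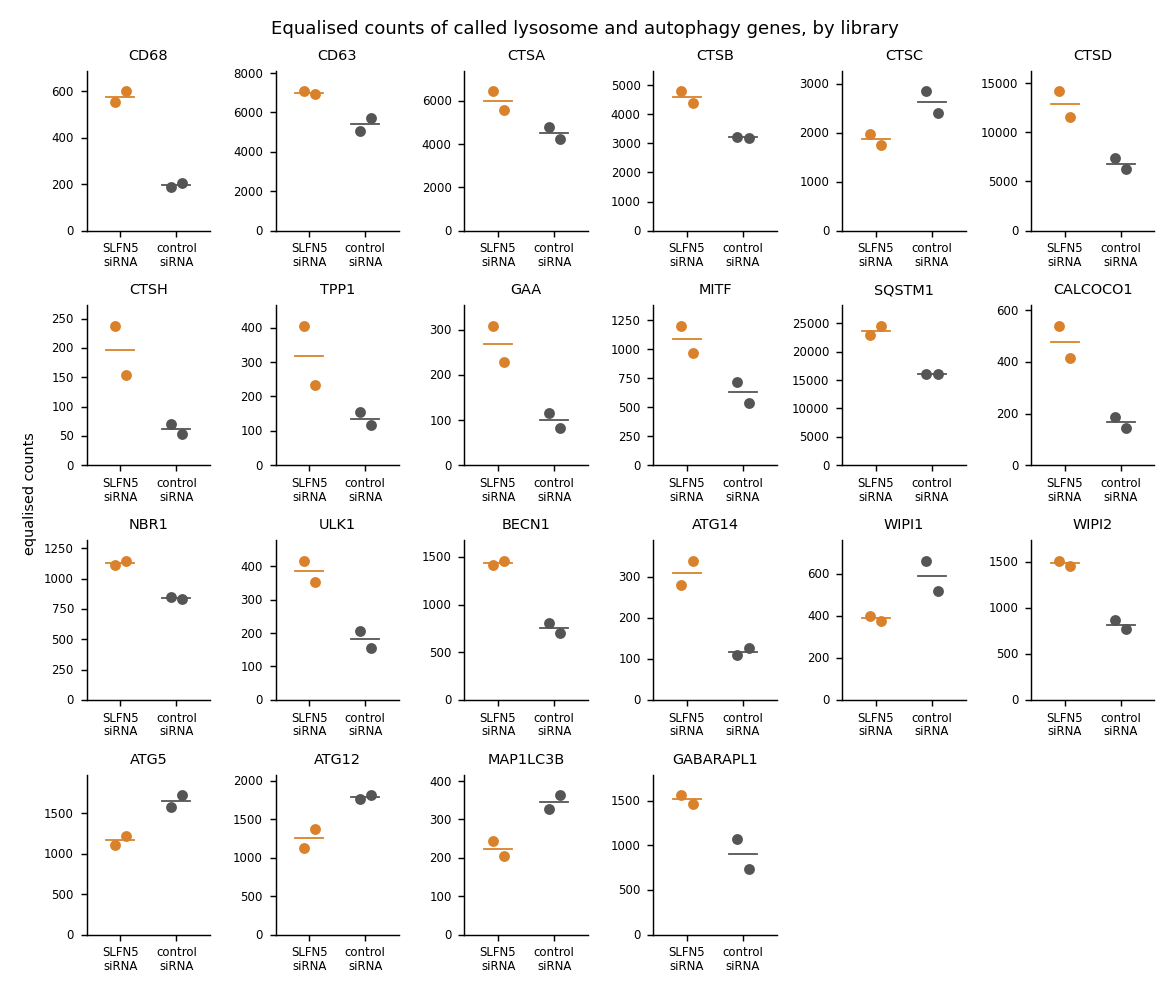
Equalised counts in each library for 22 of the 24 lysosome and autophagy genes that passed the test (ATP6V0A1 and ATP6V0B are in the plot of the pump), SLFN5 siRNA left and control siRNA right in each panel, with the mean as a bar. Panels differ in how far apart the groups stand, from CD68 (555 and 599 in SLFN5 siRNA, 187 and 204 in control siRNA) to CTSA (6438 and 5601 in SLFN5 siRNA, 4793 and 4225 in control siRNA).

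Of 3 genes that attach ATG8 to the membrane, ATG5 and ATG12 fell. These proteins are joined to each other and, with ATG16L1, act as the ligase for ATG8. ATG5 had 1103 and 1219.6 equalised counts in SLFN5 siRNA libraries, against 1580.5 and 1718 in control libraries (ratio 0.704, log2 change -0.51, SE 0.12, adjusted p = 0.0093). ATG12 had 1128 and 1374 in SLFN5 siRNA libraries against 1762 and 1806 in control libraries (ratio 0.701, log2 change -0.52, SE 0.13, adjusted p = 0.0108). The partners had like ratios, and single libraries decided each call: the adjusted p of ATG5 was 0.0893 without control 2, and that of ATG12 was 0.0647 without SLFN5 siRNA 1. ATG7, the activating enzyme of the reaction, had 721 and 800.2 equalised counts in SLFN5 siRNA libraries and 664 and 689 in control libraries and did not pass (log2 change 0.17, adjusted p = 0.393).

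Of 4 ATG8 genes, GABARAPL1 rose and MAP1LC3B fell. GABARAPL1 had 1558 and 1467 equalised counts in SLFN5 siRNA libraries, against 1069.7 and 730.5 in control libraries. The control libraries were further apart than the SLFN5 siRNA libraries, and both lay lower (log2 change 0.77, SE 0.17, adjusted p = 0.00482). Without control 2 the log2 change was 0.50 (adjusted p 0.049). MAP1LC3B, the LC3 form most used to follow autophagy, had 244 and 204 equalised counts in SLFN5 siRNA libraries, against 327 and 363 in control libraries (ratio 0.650, log2 change -0.62, SE 0.18, adjusted p = 0.023). That call was lost without SLFN5 siRNA 2 (0.0912) and without control 2 (0.166), and with limma-voom (0.0668). GABARAP had 94.1 and 106 equalised counts in SLFN5 siRNA libraries and 67.6 and 76.3 in control libraries, and GABARAPL2 had 695 and 758 in SLFN5 siRNA libraries against 665 and 742 in control libraries. Neither passed, with log2 changes of 0.47 and 0.048. MAP1LC3B and GABARAPL1 each have a near-identical copy elsewhere in the genome (MAP1LC3B2 and GABARAPL3), so their counts depend on how shared reads were assigned. GABARAP shares 55.7% of its exon length with other genes. Per exon length the mean levels of GABARAPL1 were 21.4 RPKM in SLFN5 siRNA libraries and 11.7 in control libraries, and those of MAP1LC3B were 2.43 in SLFN5 siRNA libraries and 3.45 in control libraries.

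Set on that scale, the mean levels of the 51 genes spanned from PSAP (592 RPKM in SLFN5 siRNA libraries, 447 in control libraries) to CTSF (0.0706 in SLFN5 siRNA libraries, 0.0108 in control libraries). CTSD followed PSAP in SLFN5 siRNA libraries with 237, against 116 in control libraries, where CTSZ stood second (199 in SLFN5 siRNA libraries and 202 in control libraries). SQSTM1 had 179 in SLFN5 siRNA libraries and 111 in control libraries. CD63 was next, with 154 in SLFN5 siRNA libraries and 109 in control libraries. The genes with a log2 change over 1 were of lower level. CALCOCO1 had 3.10 in SLFN5 siRNA libraries and 0.991 in control libraries, and CTSH had 1.91 in SLFN5 siRNA libraries and 0.551 in control libraries. CD68 was the most abundant of them, with 15.3 in SLFN5 siRNA libraries and 4.75 in control libraries.

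**Figure D5:**
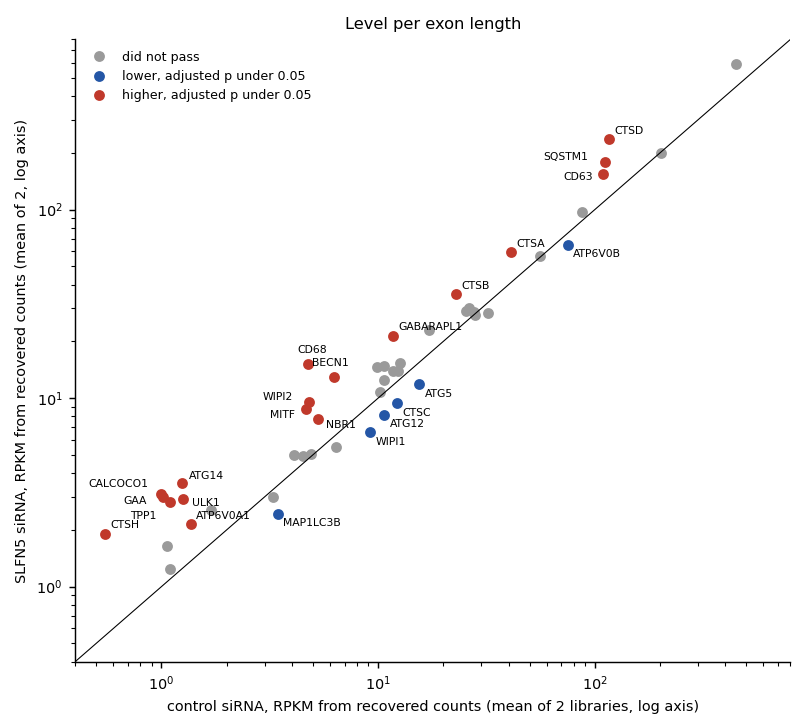
Mean level of each tested gene per exon length (RPKM from recovered counts, log axes), SLFN5 siRNA on the vertical and control siRNA on the horizontal axis, with genes that passed named. The line marks equal RPKM, which rests on total counts and not on the scaling of the equalised counts tested. Genes that rose are spread from CTSH (1.91 in SLFN5 siRNA, 0.551 in control siRNA) to CTSD (237 in SLFN5 siRNA, 116 in control siRNA).

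Libraries of a group differed less in these genes than in the table as a whole, by their medians. The 2 sets were not matched for expression level, and the fit used a trend of variance on that level. Whether the difference is particular to these genes was not tested. The median absolute log2 difference between SLFN5 siRNA 1 and 2 was 0.151 over the 49 genes and 0.228 over all genes tested, and between control 1 and 2 it was 0.171 over the 49 genes and 0.185 over all genes tested.

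A further 153 genes of the same pathways, from lists set up beside the 51, were read in the same way. Of 144 tested, 23 were higher (16.0%) and 16 were lower (11.1%), beside 13.3% and 16.3% of all genes tested, with a median log2 change of 0.080. Of 32 other hydrolases and cofactors tested, 8 rose (25%) and 1 fell (3.1%), with a median of 0.30. The gene that fell was ARSB, an arylsulfatase that trims dermatan sulfate, with 196 and 156 equalised counts in SLFN5 siRNA libraries, against 598 and 499 in control libraries (log2 change -1.64, SE 0.19, adjusted p = 0.000106). The cathepsin CTSO had 134 and 141 in SLFN5 siRNA libraries against 49.1 and 43.8 in control libraries (log2 change 1.54). LGMN, the asparaginyl endopeptidase that cleaves procathepsins, had 1804 and 1340.2 in SLFN5 siRNA libraries against 984 and 797 in control libraries (log2 change 0.81), and ARSA, another arylsulfatase, had 284 and 232 in SLFN5 siRNA libraries against 143 and 117 in control libraries (log2 change 0.98). All 3 rose, with adjusted p-values of 0.00135, 0.00314 and 0.00512.

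Of 23 other membrane and sorting genes tested, 4 rose (17.4%) and 2 fell (8.7%), beside 13.3% and 16.3% of all genes tested (median 0.024). SLC36A1, a lysosomal amino acid transporter, fell, with 218 and 261 equalised counts in SLFN5 siRNA libraries, against 557 and 507 in control libraries (log2 change -1.15, adjusted p = 0.000506). CLCN7, the chloride and proton exchanger of lysosomes, rose, with 2619 and 2338 in SLFN5 siRNA libraries against 1523 and 1405 in control libraries (log2 change 0.76, adjusted p = 0.00075). In both genes the gap between groups was wider than any gap within one. The receptor IGF2R, which carries mannose 6-phosphate tagged hydrolases, and GNPTG, a subunit of the enzyme that makes the tag, had log2 changes of 0.43 and 0.61 (adjusted p 0.00844 and 0.0089). The IGF2R call was lost without either control library (0.0506 and 0.0501), and the GNPTG call without SLFN5 siRNA 1 (0.0591). LAPTM4B, a transmembrane protein of late endosomes, fell (log2 change -0.43, adjusted p = 0.0141), and after quantile normalization its log2 change was -0.21 (0.169). Without SLFN5 siRNA 2 or control 1 the LAPTM4B adjusted p was 0.071 and 0.15.

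Among 36 other autophagy genes tested, 4 rose (11.1%) and 6 fell (16.7%), with a median of -0.024. These shares are near the 13.3% and 16.3% of all genes tested. ATG13, the partner of ULK1, had 1252 and 1074 equalised counts in SLFN5 siRNA libraries, against 726 and 568 in control libraries (log2 change 0.85, adjusted p = 0.00171). WDR45 (log2 change 1.03, adjusted p = 0.00679), a relative of the WIPI proteins, and ATG2A (0.83, 0.00358), a lipid transfer protein that works with them, also rose. ATG4D, a protease that processes ATG8, fell, with 431 and 388 in SLFN5 siRNA libraries against 779.9 and 651 in control libraries (log2 change -0.80, adjusted p = 0.00261). PLEKHM1, an adaptor for fusion with lysosomes, rose (log2 change 0.79, adjusted p = 0.0106), a call lost without SLFN5 siRNA 1 (0.0527) and without control 2 (0.0539).

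Of 25 genes of mTORC1 and lysosomal nutrient sensing tested, 5 rose (20%) and 1 fell (4%), beside 13.3% and 16.3% of all genes tested (median 0.20). FNIP2, which with folliculin acts on the RRAGC and RRAGD GTPases, had 851 and 711 equalised counts in SLFN5 siRNA libraries, against 359 and 373 in control libraries (log2 change 1.09, SE 0.15, adjusted p = 0.000368). RHEB, the GTPase that activates mTORC1, fell, with 2786 and 3189.8 in SLFN5 siRNA libraries against 4272 and 4708 in control libraries (log2 change -0.59, adjusted p = 0.00294). FNIP2 and RHEB kept wide gaps between the groups. RRAGC itself rose by 0.74 on the log2 scale (adjusted p = 0.00741), a call lost without SLFN5 siRNA 1 (0.0538). LAMTOR4 and LAMTOR1, subunits of the scaffold that anchors these GTPases, had log2 changes of 0.53 and 0.41 (adjusted p 0.00764 and 0.0394). The LAMTOR1 call was lost without SLFN5 siRNA 1 (0.0696), SLFN5 siRNA 2 (0.112) and control 2 (0.356). Of 16 genes of the BLOC-1 and HOPS complexes and their GTPases, 1 rose (6.25%) and 0 fell, shares under those of all genes tested. The 1 was VPS39, a HOPS subunit (log2 change 0.50, adjusted p = 0.0201). Its log2 change was 0.44 without SLFN5 siRNA 1 and 0.35 without control 2. The VPS39 call was lost in limma without the variance trend (adjusted p 0.128). The kit used does not mark strand, so where genes overlap on opposite strands their reads cannot be told apart, as with SQSTM1 and MRNIP, ATG7 and VGLL4, GNPTG and UNKL, ATP6V1F and KCP, ATG4D and KRI1 or LAMTOR4 and C7orf43.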

How the data were processed

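Per the labels' protocols, poly(A) RNA was made into TruSeq v2 libraries for single-end sequencing on a HiSeq 2500. Per the submitters' processing notes, the authors used hg19 and edgeR, while the read aligner, the counter and the gene models were not given in the sources used here. Each deposited value is a signal, derived by the authors from reads per gene. The values the authors deposited have the form of edgeR pseudo-counts and are called equalised counts here. Whole counts were found by inverting that adjustment. Adjusting them again gave back 230636 of 230636 deposited values within a tolerance of 1e-06. Because the deposited values are not whole, limma 3.58.1 in R 4.3.3 was the main test, the choice planned for this case. It was run on log2(value + 1), which understates the change of low genes, with group as the only term, a variance trend, and Benjamini-Hochberg adjustment over the 15640 genes with a value of at least 10 in at least 2 libraries. The threshold was 0.05. A log2 change is SLFN5 siRNA minus control siRNA, and a ratio is of group means. With 2 libraries a group there were 2 residual degrees of freedom and 9.60 prior ones. Depth differed between libraries, and variation within a group exceeded counting error (chi-square per degree of freedom of 17.8 for SLFN5 siRNA and 18.0 for control siRNA). For NEU1 the row with reads was used. Levels per length are RPKM computed from recovered counts over merged exons (GENCODE 29, GRCh38), and overlaps come from the same annotation, which is not of the files' build. RPKM used total counts. The library sizes behind the equalised counts, relative to those totals, were 1.03 and 1.06 for SLFN5 siRNA and 0.972 and 0.945 for control siRNA. Ratios of SLFN5 siRNA to control are therefore somewhat higher in RPKM than in equalised counts. Promoters come from RefSeq (GRCh38.p14), 250 bases before each start, matched by current symbol.

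The genes and lists were chosen with earlier results of these data known. All 51 could be named, with full statistics for those that passed, and of each other pathway list up to 5 genes that passed, by size of log2 change; 1 gene that this rule names is not reported here. Alternatives were other pseudocounts (0.5 and 5), filters on low values, scalings, no variance trend, a replicate block, limma-voom on recovered counts, and leaving out each library.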

Additional observations from a re-analysis of the deposited data

How the results depend on the processing

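All 24 lysosome and autophagy genes that passed kept their direction under the 14 alternatives. Pseudocounts, filters and median-of-ratios scaling moved each count of calls by less than 1.5 times. Without the variance trend, 5 of the 51 genes were higher and 0 lower by limma, against 18 and 6, with 5 of those 6 lower genes at an unadjusted p under 0.05 and 4 lower with limma-voom. The counts for other pathway genes were then 4 and 4, against 23 and 16, and those for all genes 672 and 510, against 2086 and 2544. Leaving out 1 library gave 15 to 17 of the 51 genes higher, 3 to 4 lower, 16 to 21 other pathway genes higher, 10 to 15 lower, 1346 to 1767 of all genes higher, 1588 to 2341 lower, with the lowest counts of lower genes among the 51 without either control library, of other pathway genes lower without control 1, and of all genes without control 2. Quantile normalization gave 10 other pathway genes lower, and limma-voom on recovered counts gave 38 higher. Titles give 1 library of each group the same code, which the labels do not explain. Deviations of same-numbered libraries from their group means correlated at r = 0.190 across 15640 genes, from 2 pairs. With the library number as a replicate block, 22 of the 51 genes were higher and 8 lower. The counts were 40 and 31 for the other pathway genes, and 3008 and 3695 for all genes. The added calls were NAGLU, NEU1, PSAP and ATP6V0D1 higher (adjusted p 0.00354, 0.00838, 0.00373 and 0.00274) and ATP6V1C1 and CALCOCO2 lower (0.00354 and 0.0121). Genes that had not passed changed sign: after quantile normalization, LAMP2 0.12, SCARB2 0.12, CTSZ 0.086, GLA 0.013, ATP6V1H 0.014, TFEB -0.071; with limma-voom, LAMP2 0.026, SCARB2 0.077, GLA 0.046; and with 1 library left out, LAMP1 -0.010 to 0.051, SCARB2 -0.11 to 0.021, CTSL2 -0.28 to 0.10, GLB1 -0.027 to 0.14, HEXA -0.10 to 0.14, ATP6V1A -0.015 to 0.16, TFEB -0.25 to 0.34, GABARAPL2 -0.031 to 0.13 (log2 changes). The cause was not tested. CTSF and ATP6V0C fell under the limit on low values and were not tested, and depth limits changes in low genes such as TFEB and MCOLN1.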
